A study of Mus musculus with 6 samples.

Results

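The genes of the amyloid precursor family and of the secretases that cut them were followed in the hippocampus of mice that make too much of the enzyme glutamate dehydrogenase 1. The family is App, Aplp1 and Aplp2. The proteases are Adam10, Bace1 and 4 genes of the gamma-secretase complex, Psen2, Ncstn, Aph1a and Psenen. These 9 genes were chosen by name, and their members are the 27 probesets whose annotation gives 1 of these symbols and no other, of 45037 probesets that are not array controls. RNA came from homogenised hippocampi of 3 Glud1 transgenic (Tg) and 3 wild type (wt) mice, all male, 9 months old and of the C57BL/6 background, with 1 Affymetrix whole-genome mouse array per mouse. The Tg mice carry Glud1 under the promoter of neuron-specific enolase, which restricts the extra enzyme to neurons, and received no treatment, like the wt mice. The study asked how the hippocampus responds to a lifelong moderate excess of released glutamate. A probeset is a group of short probes that reads 1 stretch of messenger RNA, usually near its 3' end, and its signal is a brightness on a linear scale. Signals of different probesets depend on their probes and are not compared with each other as levels of RNA.

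The amyloid precursor protein is a membrane protein of neurons and other cells that takes part in the growth of neurites, synapse formation and adhesion. Alpha-secretase cuts it in the middle of the stretch that can become amyloid peptide. Beta-secretase and then gamma-secretase cut at the ends of that stretch and release the peptide, which collects in the plaques of Alzheimer's disease. APLP1 and APLP2 are related proteins that are cut by the same proteases but do not contain the peptide. In neurons, activity of glutamatergic synapses is known to alter how the precursor is cut.

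The precursor genes are shown first by the DNA just upstream of their starts, since they make the substrate on which the 6 protease genes act. Each sequence is the 250 bases before the RefSeq transcription start on build GRCm38.p6, read 5' to 3' on the strand of the gene, with the GGGCGG motif in capitals. CCGCCC, the same motif on the other strand, was searched as well and does not occur in these 3.
App, minus strand, chr16:85173708-85173957: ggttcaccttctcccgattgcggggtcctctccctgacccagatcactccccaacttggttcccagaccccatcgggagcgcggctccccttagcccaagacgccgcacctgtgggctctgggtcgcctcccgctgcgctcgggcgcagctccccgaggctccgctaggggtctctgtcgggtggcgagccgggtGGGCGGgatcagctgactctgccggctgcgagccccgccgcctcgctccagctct
Aplp1, minus strand, chr7:30445583-30445832: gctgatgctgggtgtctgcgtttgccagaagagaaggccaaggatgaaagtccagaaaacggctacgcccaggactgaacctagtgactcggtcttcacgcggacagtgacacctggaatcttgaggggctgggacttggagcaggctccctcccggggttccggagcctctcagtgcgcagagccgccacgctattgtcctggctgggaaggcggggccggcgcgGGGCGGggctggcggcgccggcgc
Aplp2, minus strand, chr9:31211849-31212098: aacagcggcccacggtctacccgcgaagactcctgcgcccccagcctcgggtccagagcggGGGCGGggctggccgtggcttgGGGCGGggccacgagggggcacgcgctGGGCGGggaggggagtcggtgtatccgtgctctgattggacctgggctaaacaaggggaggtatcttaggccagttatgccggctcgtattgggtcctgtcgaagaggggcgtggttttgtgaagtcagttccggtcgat
The App stretch holds 70.8% G and C with 23 CG steps and 1 GGGCGG motif, the Aplp1 stretch 66.0% with 20 CG steps and 1 motif, and the Aplp2 stretch 66.4% with 22 CG steps and 3 motifs. Over all 32851 promoter stretches of this length in the table the median was 52.4% with 6 CG steps. The table has 10 stretches for 8 of the 9 genes, all but Bace1, since Psen2 and Psenen have 2 starts each. Among these 10, the share of G and C ran from 44.8%, at one Psen2 start, to 74.0% in Adam10, and 9 lay above the median of all. GGGCGG or its complement was present in 6 of the 10, against 32.7% of all stretches. TATAAA or its complement was present in 0 of the 10, against 12.4%. A match or its absence describes the letters of these windows only.

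The arrays had been scaled to a common trimmed mean of 500. Neuronal markers were bright on all 6 arrays, with summed signals of 91500 to 95570 on Tg and 92330 to 99490 on wt arrays, and all 6 granule cell markers of the dentate gyrus were measured. The signal of 18S ribosomal RNA at its 3' control was brighter on wt 1 (13960) and wt 2 (10380) than on wt 3 (2286) and the Tg arrays (976 to 3313), and the granule cell sum was lower on wt 1 (6377) and wt 2 (7439) than on wt 3 (9260) and the Tg arrays (9432 to 9883). The summed choroid plexus markers were at 4444 on Tg 3 and from 41960 to 65960 on the other 5 arrays. The 2 kept Glud1 probesets gave 5096 ± 402 in Tg and 5410.2 ± 353 in wt mice at 1416209_at, and 5424 ± 268 and 6009.6 ± 368 at 1448253_at. Whether they detect RNA of the transgene is not given in the sources used here, so they check no label. In homogenised tissue, fewer cells of a type and less RNA per cell cannot be told apart.

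App and Aplp1 had nearly the same signals in Tg and wt mice, and the intervals of the differences were narrow. At the brightest App probeset, 1427442_a_at, the Tg arrays read 26775, 29252 and 29037 and the wt arrays 28084, 28927 and 28164. The groups overlapped, and the dimmest and the brightest of the 6 values were both Tg. The means (± SD, n = 3 throughout) were 28355 ± 1373 for Tg and 28392 ± 465 for wt, and the fitted ratio of Tg to wt was 0.998 with a 95% confidence interval from 0.903 to 1.10 (limma on log2 values, adjusted p = 0.993). The next App probeset, 1420621_a_at, gave 14680 ± 688 and 14459 ± 503, a ratio of 1.01 with an interval from 0.912 to 1.13. The other 2 App probesets were dim on every array, with signals from 2.9 to 74.5, and fell under the limit on mean level.

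Aplp1 read 25288, 24884 and 24733 in Tg and 24224, 26509 and 24878 in wt mice at 1435857_s_at. All 3 Tg values lay inside the range of the wt values. The ratio was 0.991 with an interval from 0.897 to 1.10 (limma, adjusted p = 0.966). At 1416134_at the signals were 7981 ± 479 and 8549 ± 1091, a ratio of 0.938 with an interval from 0.809 to 1.09. Both probesets of this gene gave ratios under 1, and neither differed beyond the spread between mice.

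Aplp2 encodes the family member most like App and is made in most tissues, and its 5 probesets did not give the same picture. The brightest, 1423739_x_at, read 7011, 7347 and 7457 in Tg and 7584, 7579 and 7574 in wt mice. Every Tg array lay below every wt array, but by little, with a ratio of 0.959 and an interval from 0.861 to 1.07 (limma, adjusted p = 0.820). The ending x marks probes that can also match other sequences. The next brightest, 1421887_a_at, overlapped between the groups with a ratio of 0.986, and so did the dimmest, 1421888_x_at, with a ratio of 0.962. The remaining 2 were higher in Tg mice. At 1421889_a_at the Tg arrays read 2950, 3486 and 3377 and the wt arrays 2662, 2564 and 2649. Every Tg value was above every wt value, and the wt values lay close together. The ratio was 1.24 with an interval from 1.08 to 1.43, a log2 fold change of 0.31 (SE 0.0918, limma, unadjusted p = 0.00523, adjusted p = 0.290), the smallest p of the 23 probesets tested. At 1432344_a_at the Tg arrays read 1026, 1229 and 1977 and the wt arrays 944, 924 and 1059. The Tg 3 array stood far above the other 5 values, and Tg 1 lay below wt 3. The ratio was 1.39 with an interval from 1.03 to 1.86 (limma, unadjusted p = 0.0316, adjusted p = 0.464), and without Tg 3 the log2 fold change went from 0.47 to 0.20. This probeset belongs to the study's own list of higher genes, which was chosen on these samples and is not independent evidence. Of the 3 probesets that the annotation ties to the same source sequence, 1421887_a_at, 1421888_x_at and 1421889_a_at, only the last gave a ratio above 1.

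**Figure D1:**
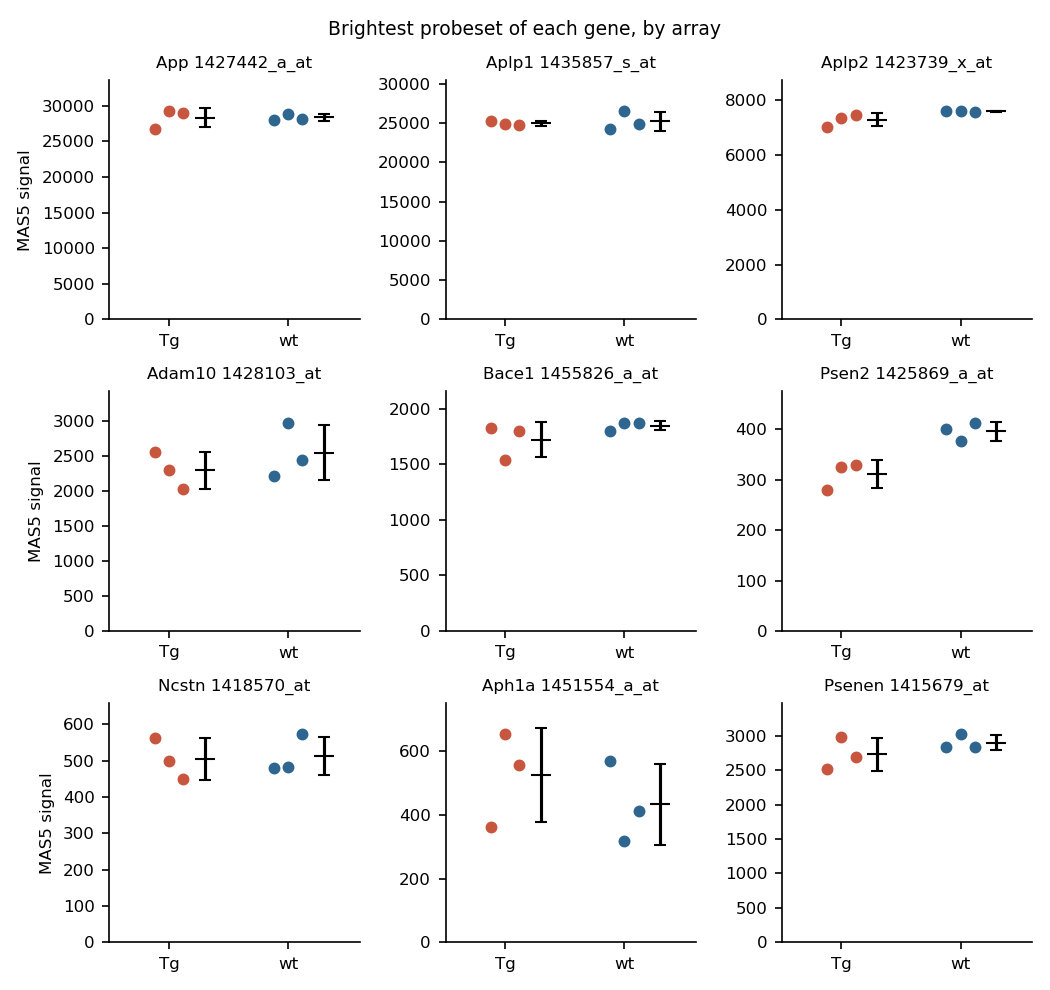
MAS5 signal (vertical axis, linear from 0) at the brightest probeset of each of the 9 genes in the 3 Tg (red) and 3 wt (blue) arrays, with group mean and SD as black bars. App, Aplp1 and Aplp2 stood at nearly the same height in both groups, Psen2 was below wt on all 3 Tg arrays, and Aph1a was scattered in both groups.

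Adam10 encodes the main alpha-secretase of neurons, a metalloprotease of the cell surface that also cuts adhesion proteins. Its brightest probeset, 1428103_at, read 2554, 2304 and 2027 in Tg and 2213, 2976 and 2448 in wt mice. The groups overlapped, with wt 2 as the highest value, and the ratio was 0.905 with an interval from 0.751 to 1.09 (limma, adjusted p = 0.738). A dimmer probeset, 1450104_at, pointed the other way. It read 281, 347 and 301 in Tg and 191, 200.1 and 251 in wt mice, every Tg array above every wt array. The ratio there was 1.42 with an interval from 1.05 to 1.93 (limma, unadjusted p = 0.0270, adjusted p = 0.451). A neighbouring probeset from the same source sequence, 1450105_at, gave 592 ± 27.7 and 539 ± 32.2, a ratio of 1.10 that overlapped between the groups. The 4th, 1460083_at, read 54.1 on Tg 1 and from 6.2 to 14.4 on the other arrays and was under the limit on mean level.

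Bace1 encodes beta-secretase, the aspartic protease that makes the first cut on the way to the amyloid peptide. At its brightest probeset, 1455826_a_at, the Tg arrays read 1828, 1543 and 1803 and the wt arrays 1802, 1876 and 1871. Tg 2 was the lowest, the other 2 Tg values lay among the wt values, and the ratio was 0.930 with an interval from 0.798 to 1.08 (limma, adjusted p = 0.771). The 3 other probesets share 1 source sequence and gave ratios of 1.01 at 1421824_at, 1.17 at 1421825_at and 1.62 at 1450384_at. Only the last had an interval clear of 1, from 1.12 to 2.34 (limma, unadjusted p = 0.0143, adjusted p = 0.383). Its signals were 467, 386 and 518 in Tg and 184, 282 and 392 in wt mice. The wt arrays were spread over a wide range there, and wt 3 lay above Tg 2. Without wt 1 the log2 fold change went from 0.70 to 0.43, with an unadjusted p of 0.0589 in limma.

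The gamma-secretase complex cuts within the membrane and needs a presenilin as its catalytic subunit, nicastrin to receive the substrate, APH1 as a scaffold and PEN2 to activate the presenilin. Psen2, which encodes one presenilin, had the largest difference of the brightest probesets of the 9 genes. At 1425869_a_at it read 280, 326 and 330 in Tg and 400, 376 and 413 in wt mice. Every Tg array was below every wt array, and the ratio was 0.794 with an interval from 0.619 to 1.02 (limma, unadjusted p = 0.0676, adjusted p = 0.551). Its other probeset, 1431542_at, was dim and went the opposite way, with 107, 66.1 and 104 in Tg and 17.8, 60.3 and 15.0 in wt mice. The mean level of the wt arrays at that probeset, 27.1, was under the limit of 47.8 that a probeset's mean over all 6 arrays had to reach, so it was tested only through its Tg values and had to differ. Its ratio of 2.48 (interval from 1.15 to 5.31, limma, unadjusted p = 0.0237, adjusted p = 0.437) is a description. The Ncstn probeset 1444532_at lay just outside the limit, with a mean level of 45.1, against 51.8 for this Psen2 probeset. It went the other way, with a level of 29.2 in Tg and 66.6 in wt mice and overlapping groups. With no limit on mean level, 5 of 27 member probesets had an unadjusted p under 0.05 in limma, beside 3735 of all 45037 (8.29%). With the limit it was 5 of 23, beside 3011 of 31076 (9.69%). Both counts include Psen2 1431542_at.

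Ncstn, which encodes nicastrin, read 564, 499 and 449 in Tg and 480, 483 and 573 in wt mice at 1418570_at, a ratio of 0.984 with an interval from 0.781 to 1.24. Both groups covered almost the same range. Psenen, which encodes PEN2, has 1 probeset, 1415679_at, and read 2509, 2981 and 2695 in Tg and 2837, 3019 and 2834 in wt mice. The groups overlapped at a ratio of 0.940 with an interval from 0.817 to 1.08. Aph1a had the widest interval of the brightest probesets. That one, 1451554_a_at, read 363, 653 and 556 in Tg and 570, 319 and 413 in wt mice, a ratio of 1.20 with an interval from 0.833 to 1.72. The other probesets of the same source sequence gave ratios of 1.18 at 1424980_s_at and 0.797 at 1424979_at, with intervals from 0.892 to 1.57 and from 0.543 to 1.17. The adjusted p in limma was 0.972 for Ncstn, 0.792 for Psenen and 0.756 for Aph1a at the brightest probesets.

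**Figure D2:**
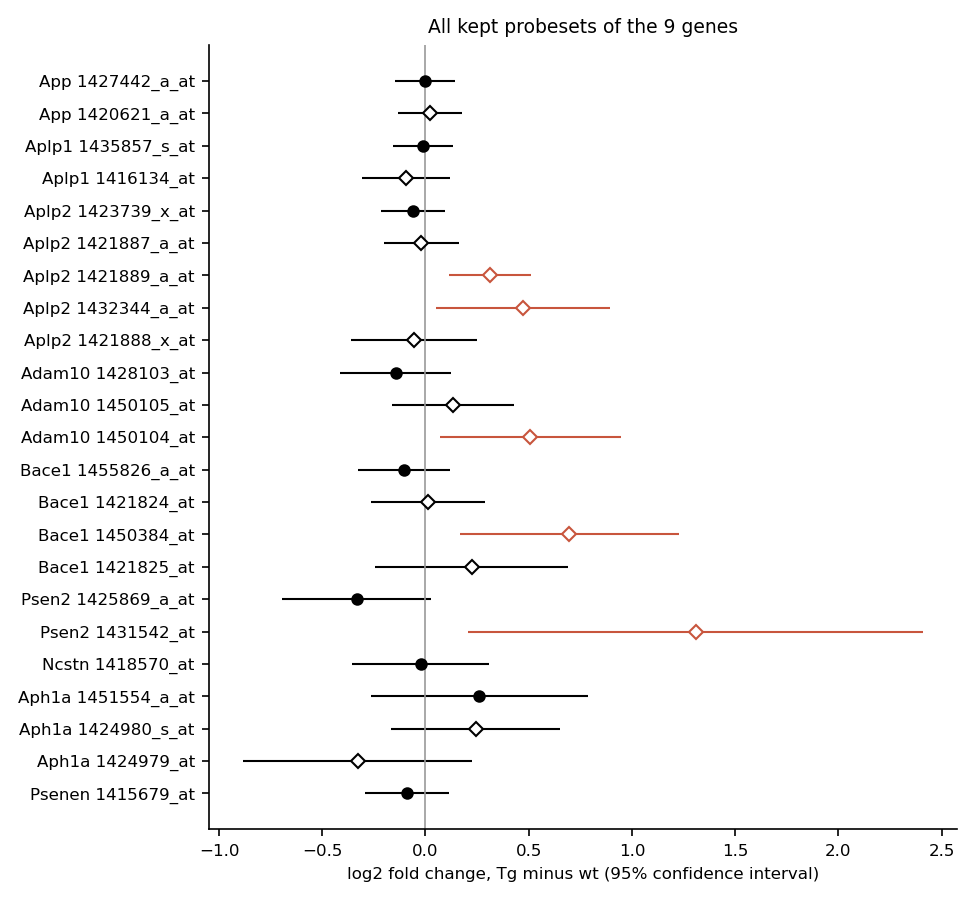
Log2 fold change (Tg minus wt, horizontal axis) with its 95% confidence interval for the 23 kept probesets of the 9 genes. Filled circles are the brightest probeset of a gene and open diamonds the others, and red marks the 5 probesets with an unadjusted p under 0.05, none of them the brightest of its gene.

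Over all 9 genes, limma called 0 of 23 kept probesets at an adjusted p under 0.05, and 0% of all 31076 kept probesets, while 5 of the 23 (21.7%) had an unadjusted p under 0.05. All 5 were higher in Tg mice, where 5.91% of all kept probesets were, and 0 were lower, against 3.78%. Without the Psen2 probeset that passed through its Tg values there were 4. At the brightest probesets 0 of 9 genes had an unadjusted p under 0.05, against 2.90% of genes higher and 4.97% lower over the table. Cyber-T, the study's second test, called 0 of the 23 at an adjusted p under 0.05, and 65 of all kept probesets, or 0.209%. The count of 5, beside 3011 of all kept probesets in either direction (9.69%), went to 1 without wt 1, beside 3498 (11.3%), and to 2 without Tg 3, beside 2101 (6.76%). It was 4 without each of the other 4 arrays in turn, beside 2351 to 3076. Tg and wt values did not overlap at 5 probesets, 3 with Tg above, or 2 without that Psen2 probeset, against 8.58% of all, and 2 with Tg below, against 6.67%. Counting every kept probeset, 11 of 23 had a log2 fold change above 0, against 53.2% of all, and the median was -0.003, against 0.020. At the brightest probesets 8 of 9 genes had a ratio under 1, all but Aph1a, against 55.9% of the 13854 genes measured this way. That count was 6 of 9 after quantile normalization and 8 of 9 once arrays were centred on their medians. The count depends on the probeset chosen. With the kept probesets of each gene averaged, only Aplp1 (-0.053), Ncstn (-0.024) and Psenen (-0.089) had a log2 fold change under 0. App was then at 0.0092, Aph1a at 0.059, Aplp2 at 0.13, Adam10 at 0.17 and Bace1 at 0.21. Psen2, whose average includes the probeset that passed through its Tg values, was at 0.49.

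For each of the 5 probesets, the difference from the brightest probeset of the same gene was formed on every array, as a difference of log2 signals. It was higher on every Tg array than on every wt array in all 5 cases. For Aplp2 1421889_a_at it was -1.24, -1.07 and -1.14 in Tg and -1.51, -1.56 and -1.51 in wt mice, and for Bace1 1450384_at -1.93, -1.96 and -1.77 in Tg and -3.18, -2.67 and -2.21 in wt mice. The group difference was 0.37 and 0.80 for these, 0.53 for Aplp2 1432344_a_at and 0.65 for Adam10. It was 1.64 for Psen2, whose probeset was tested only through its Tg values and had to differ. The 5 were picked for a low unadjusted p and all were higher in Tg mice, which favours this direction. The share of such separations over all genes was not counted, so these differences are a description with no test.

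**Figure D3:**
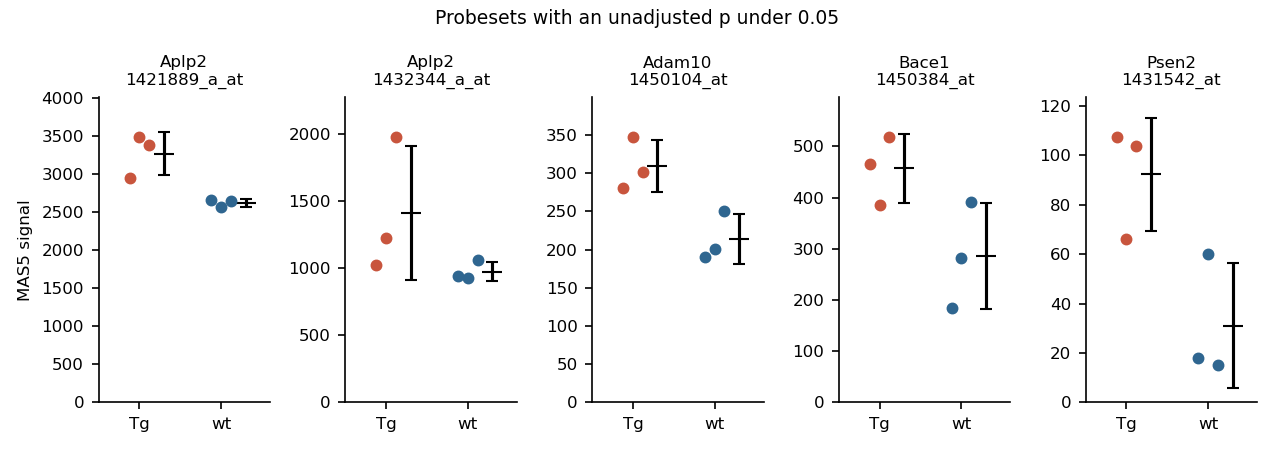
MAS5 signal (vertical axis, linear from 0) on the 3 Tg (red) and 3 wt (blue) arrays at the 5 probesets with an unadjusted p under 0.05, with group mean and SD as black bars. The groups were apart at Aplp2 1421889_a_at, Adam10 and Psen2 and overlapped at Aplp2 1432344_a_at and Bace1.

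With signals as deposited, dim probesets had higher ratios of Tg to wt than bright ones over the whole table. In 23 bins of mean level, the median log2 fold change of all kept probesets was 0.086 in the dimmest bin, 0.058 at a mean log2 level of 8.46, near that of Bace1 1450384_at, and -0.068 in the brightest, which holds the brightest App and Aplp1 probesets. Kept probesets had a median signal of 315 ± 4.83 on Tg and 300.2 ± 4.46 on wt arrays. Against the bins of their own level, both Aplp2 probesets lay above the 95th percentile, which was 0.214 at a level of 11.54 and 0.323 at 10.39. For Actb, the signal at the 3' end over that at the 5' end, which climbs as RNA degrades, stood at 1.66 ± 0.0271 on Tg and 1.84 ± 0.125 on wt arrays (p = 0.1, exact two-sided permutation test, the smallest that 3 arrays against 3 allow). The same quotient for Gapdh was 0.787 ± 0.0105 and 0.824 ± 0.0786, with overlapping groups (p = 0.6, exact two-sided permutation test). The part of these quantities in the members' values was not tested.

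**Figure D4:**
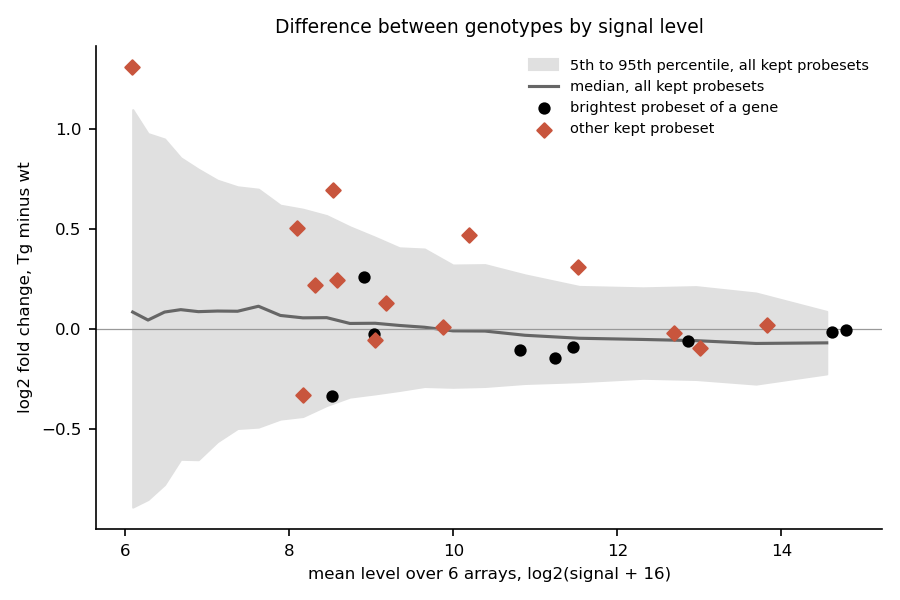
Log2 fold change (Tg minus wt, vertical axis) against mean level over the 6 arrays (horizontal axis, log2 scale) for the members, over the 5th to 95th percentile (grey band) and median (line) of all 31076 kept probesets. The brightest probesets of the 9 genes (black circles) lay inside the band or, for App and Aplp1, just past its bright end. Of the others (red diamonds), 2 of Aplp2 and 1 of Bace1 lay above it. The Psen2 diamond at the dim edge of the band was tested only through its Tg values and had to differ.

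Genes that act around the precursor were taken from 6 lists, and limma called 0 of the 43 measured at their brightest probeset. At an unadjusted p under 0.05, 1 had a higher and 2 had a lower signal in Tg mice, against 2.90% and 4.97% of all genes at their brightest probesets. Of the 43, 30 had a log2 fold change under 0, against 55.9% of all genes, with a median of -0.068, and the count was 28 after quantile normalization and 34 once arrays were centred on their medians. The adaptors that bind the cytoplasmic tail of the precursor were lower in 7 of 8 cases, with a median of -0.13. Apba2, which encodes a neuronal adaptor of the X11 family, read 951, 1014 and 929 in Tg and 1307, 1112 and 1191 in wt mice, every Tg array below every wt array, with a ratio of 0.805 (interval from 0.679 to 0.955, limma, adjusted p = 0.399). The exception was Apba3, with a log2 fold change of 0.15. The summed signal of the 8 adaptors was 11770 to 12390 on Tg and 12960 to 13070 on wt arrays, with no overlap. Sums of the amyloid peptide degrading proteases, 1878 to 1962 and 1963 to 2373, did not overlap either, while those of the other lists did. Of all single kept probesets, 6.67% had every Tg array below every wt array. How often sums of other genes part in this way was not counted.

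Sorting receptors and coat proteins, which steer the precursor between the cell surface, endosomes and the Golgi apparatus, were evenly divided, 7 higher and 7 lower of 14, with a median of 0.001. Sorl1, which encodes a sorting receptor that keeps the precursor away from the compartments where it is cut, had the lowest unadjusted p of the 6 lists. It read 7421, 7553 and 8752 in Tg and 5967, 6160 and 6327 in wt mice. Every Tg array was above every wt array, and the ratio was 1.28 with an interval from 1.13 to 1.45 (limma, unadjusted p = 0.00108, adjusted p = 0.227). Leaving out any of the 6 arrays kept its log2 fold change between 0.28 and 0.40.

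Proteases that degrade the amyloid peptide were lower in 3 of 4 cases, with a median of -0.21. Ece1, which encodes an endothelin-converting enzyme, read 437, 442 and 388 in Tg and 558, 473 and 579 in wt mice. The groups did not overlap, at a ratio of 0.795 with an interval from 0.632 to 0.999 (limma, adjusted p = 0.516). Modulators of beta- and gamma-secretase, among them the reticulons, were lower in 6 of 7 cases, with a median of -0.11. Rtn3, Rtn4, Itm2b and Itm2c are very bright. Near their levels the median of all kept probesets was -0.071 and -0.068, at mean log2 levels of 13.69 and 14.55. Among the modulators, Rtn4 was at -0.068 at its brightest probeset, while the study lists it as higher in Tg mice from RMA values. The probeset behind the study's entry was not compared. Itm2b, which encodes a membrane protein that binds the precursor, had the highest mean signal there, at 22404 ± 1482 in Tg and 23311 ± 1326 in wt mice. Of the related proteases and gamma-secretase relatives, 4 of 5 were measured and 3 of these were lower (median -0.078), with Aph1b, a second APH1 scaffold, at 1769.9 ± 59.0 and 1706 ± 409.6. Adam17, which the study also lists as higher from RMA values, was at -0.016, with an interval of the ratio from 0.66 to 1.47. For Adam17, too, the probeset behind the study's entry was not compared. The point farthest from 0 was Bace2, at -0.89, named for that after its values were seen, with dim signals from 4.2 to 114 that overlapped between the groups. Of the substrates of beta-secretase outside the precursor family, 4 of 6 were lower (median -0.013), with Sez6l2, a neuronal membrane protein, at 5898 ± 646 in Tg and 5230 ± 200.2 in wt mice.

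Summed signals of astrocyte and microglia markers also did not overlap between the groups. The 8 astrocyte markers, 7 of them with a log2 fold change under 0, summed to 76390 to 81030 in Tg and 82730 to 86370 in wt mice, and the 8 microglia markers, 5 of them under 0, to 12720 to 13270 and 13690 to 14860. Oligodendrocyte sums overlapped, with 65050 to 81220 and 67500 to 81550 over 7 markers, and so did endothelial sums, with 2535 to 3220 and 3043 to 3250 over 6. Subiculum and other retrohippocampal markers summed to 2997 to 3763 in Tg and 4940 to 5577 in wt mice over 5 markers, all 5 with a log2 fold change under 0 (median -0.62) and 3 with an unadjusted p under 0.05 in limma. All 6 granule cell markers, whose sums are given above, had a log2 fold change above 0 (median 0.70), 4 of them with an unadjusted p under 0.05. The part of these cell types in the values of the 9 genes was not tested.

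**Figure D5:**
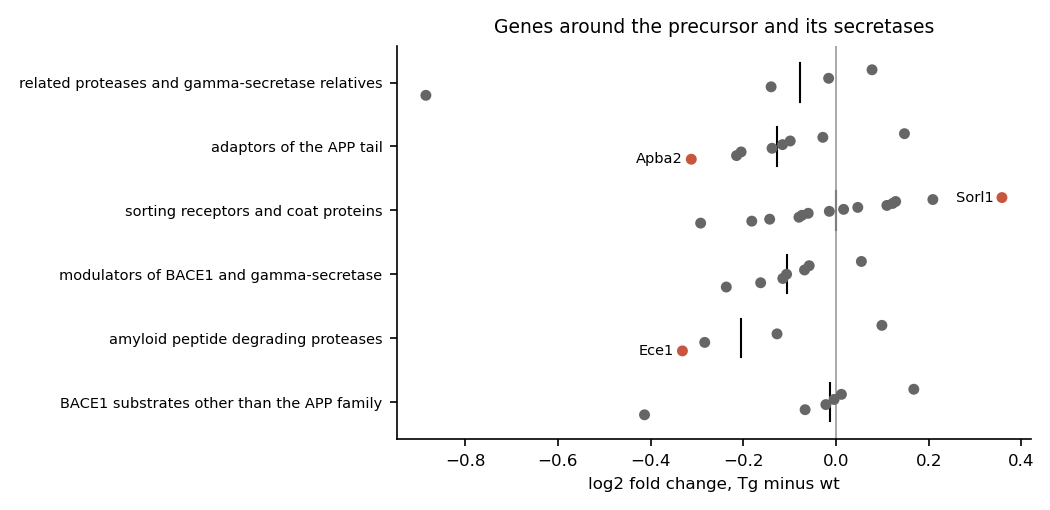
Log2 fold change (Tg minus wt, horizontal axis) of the 43 measured genes of the 6 lists at their brightest probeset, with each list's median as a black line. Red points are the 3 genes with an unadjusted p under 0.05, Apba2 and Ece1 below 0 and Sorl1 above 0.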

How the data were processed

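Hippocampal RNA of 3 Tg and 3 wt mice was hybridised to 1 array each. The authors deposited signal intensities on a linear scale, made with the MAS5 method and scaled to a trimmed mean of 500, while their own gene lists came from RMA values tested with SAM and Cyber-T, which were not used here. Of 45101 probesets, 64 array controls were set aside. Of the other 45037, 34945 were annotated to 1 gene, 932 to several and 9160 to none. Signals were taken as log2(signal + 16), so fold changes of dim probesets are understated, and the 31% with the lowest mean over all 6 arrays, those under a level of 47.8, were left out. The constant 16 and this limit decide which dim probesets were tested. Tg was compared with wt over the 31076 kept probesets with limma 3.58.1 in R 4.3.3 (lmFit, eBayes with an intensity trend), with Benjamini-Hochberg adjustment over all of them and a threshold of 0.05. The procedure was tested on simulated data. With 3 arrays per group, the number of arrays limits the precision.

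Per-array signals are given for the brightest probeset of each member gene, for member probesets with an unadjusted p under 0.05 and for the Aplp2 probeset of the study's list. Of the other genes, those with an unadjusted p under 0.05 are named, or the gene with the highest mean in a list with none. Rtn4 and Adam17 are named besides, since the study lists them. The members and the lists were chosen with earlier results of these data known. Replicate numbers did not pair the arrays (correlation of deviations -0.016, 0.0078 and 0.033). Alternatives were other constants, scalings, filters and variance models, Cyber-T, a replicate block and arrays left out. Promoter sequences came from RefSeq on GRCm38.p6. Some genes of this system are not reported here.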

Additional observations from a re-analysis of the deposited data

How the results depend on the processing

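No member probeset and none of the 43 other genes was called at an adjusted p under 0.05 in any alternative run with limma or Cyber-T. The fold and p limits of the study, without its limit on false discovery, were at least 1.3-fold and an unadjusted p at most 0.05. In limma they took in 4 of 23 member probesets and 2148 of all 31076 kept probesets. Of these 4, Psen2 1431542_at was tested only through its Tg values and had to differ. Over all kept probesets, 0 were called in limma, with 3011 at an unadjusted p under 0.05, against 65 by Cyber-T, 1 with the replicate block and 0 to 6 with 1 array left out. With the replicate block, which in this balanced design alters only the errors and not the fold changes, 0 member probesets were called. At single probesets, directions turned only where differences were near 0. With a gene's kept probesets averaged in place of the brightest, larger ones turned too. Bace1 went from -0.10 to 0.21, Adam10 from -0.14 to 0.17 and Aplp2 from -0.060 to 0.13. Psen2 went from -0.33 to 0.49, but its average includes the probeset that was tested only through its Tg values. After quantile normalization the log2 fold change was 0.073 for App, 0.049 for Aplp1 and 0.023 for Itm2b. With 1 array left out, App ran from -0.026 to 0.038, Aplp1 from -0.041 to 0.024, Ncstn from -0.11 to 0.057 and Aph1b from -0.055 to 0.26. Without wt 1 and wt 2, App was at 0.0086 and Aplp1 at 0.0052. In total 409 comparisons of a value with its alternative were rated unchanged, and 11 fold changes of single probesets reversed. The other 7 were counts of probesets that rose, among them the 4 and 2148 at the looser limits above. Counts were rated unchanged within a set factor, and the members' median within the median SE of 0.135. That median could therefore turn and be rated unchanged, as at 0.049 after quantile normalization. The share of all kept probesets above 0 was 53.2%, 49.1% after quantile normalization and 43% with arrays centred on their medians, and the member count above 0 was 11, 14 and 9. Without wt 1 and wt 2, Bace1 1450384_at went from 0.70 to 0.20 and Adam10 1450104_at from 0.51 to 0.28, and the cause was not tested. Dim probesets near the limit on mean level hold little signal above background and bound no level.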
